A study of Mus musculus with 4 samples.

Results

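The CC chemokines of nerve cells described here were 10 genes, the ligands Ccl2, Ccl7, Ccl8, Ccl9, Ccl11, Ccl3, Ccl4, Ccl5 and Ccl25 and the receptor Ccr2. They were taken by row name from the count files, which together listed 22716 genes. Ccl8 was not listed in 1 of the 4 libraries, neonatal replicate 2, and the other 9 genes were listed in all 4. Cells of sciatic nerve from wild-type CD1 mice were profiled by Drop-seq, a droplet method that counts mRNA 3' ends with unique molecular identifiers (UMIs), to ask which nerve cells carry which ligand mRNAs. The 3 days post-injury (3 DPI) library came from the distal nerve segment of adult mice after unilateral resection, and these mice also received ketoprofen or meloxicam and buprenorphine around surgery. The uninjured library came from adult mice without surgery. Neonatal replicate 1 was taken at P3 to P4 and sorted by FACS for nucleated, propidium iodide-negative cells, and neonatal replicate 2 was taken at P2 to P3. All libraries but neonatal replicate 1 were cleared of myelin with magnetic beads. The labels do not give the number of mice per library. All nerves were dissociated with collagenase and trypsin. Each adult condition was 1 library, so no difference between conditions had a replicate check and no test was made. The neonatal preparations differed in age and isolation and are given separately.

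CC chemokines are small secreted proteins that attract leukocytes through G protein-coupled receptors, and several ligands share a receptor. CCL2 and CCL7 act on CCR2, through which monocytes are recruited into injured tissue. CCL2 made by Schwann cells and other resident cells is known for its part in macrophage entry during Wallerian degeneration, the breakdown of axons and myelin distal to a nerve injury. CCL11, or eotaxin, acts on CCR3 of eosinophils, CCL3, CCL5 and CCL9 act on CCR1 and CCL25 acts on CCR9.

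The libraries held 4513814 to 8123103 UMIs, and 1837 to 5420 cells per library were kept, with a median of 994 to 1791 UMIs per cell. Between 0 and 3 cell barcodes were shared by any pair of libraries. Cell classes were rebuilt from marker genes, with chemokine genes kept out of the clustering, and are written as X-like because the study's own assignment of cells was not used. Endoneurial-like cells, the fibroblasts of the space around axons, carried the marker Osr2 in 46.7% of 3 DPI cells, 55.5% of uninjured cells and 37.3% and 37.7% of cells in the neonatal preparations. One endoneurial marker, Wif1, was found in 71.9% of the 3 DPI but 1.2% of the uninjured endoneurial-like cells. Schwann-like cells carried Sox10, a transcription factor of the glial lineage, in 33.3% to 38.8% of cells across the 4 libraries. Levels are given as CPM, the UMIs of a gene summed over a class and divided by all UMIs of that class, per 1000000, with an exact Poisson 95% interval. Shares of cells with a UMI carry an exact Clopper-Pearson 95% interval. These intervals cover counting error only, not the spread between mice.

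Of the 10 genes, 8 lie on chromosome 11 of the mouse genome (GRCm38), between positions 82035571 and 83664683. Ccl2, Ccl7, Ccl11 and Ccl8 follow each other in that order from 82035571 to 82116799, and Ccl5, Ccl9, Ccl3 and Ccl4 follow from 83525778 to 83664683. Ccl25 lies on chromosome 8 and Ccr2 on chromosome 9. RefSeq promoters of GRCm38.p6 were matched for 5 members, Ccl8, Ccl9, Ccl3, Ccl25 and Ccr2. The 250 bases before the start of Ccl8 and Ccl9 are printed because, of these 5, Ccl8 and Ccl9 were the genes with the highest levels in mesenchymal-like cells at 3 DPI. Capitals mark matches, on either strand, to the TATA box (TATAAA), the AP-1 site (TGANTCA), the C/EBP site (TTGCNNAA) or the NF-kB consensus.
Ccl8, chr11:82114935-82115184, plus strand: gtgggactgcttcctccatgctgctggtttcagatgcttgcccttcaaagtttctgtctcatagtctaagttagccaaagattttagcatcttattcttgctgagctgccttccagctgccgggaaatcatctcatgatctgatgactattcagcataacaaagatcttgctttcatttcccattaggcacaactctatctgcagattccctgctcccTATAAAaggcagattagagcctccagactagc
Ccl9, chr11:83578637-83578886, minus strand: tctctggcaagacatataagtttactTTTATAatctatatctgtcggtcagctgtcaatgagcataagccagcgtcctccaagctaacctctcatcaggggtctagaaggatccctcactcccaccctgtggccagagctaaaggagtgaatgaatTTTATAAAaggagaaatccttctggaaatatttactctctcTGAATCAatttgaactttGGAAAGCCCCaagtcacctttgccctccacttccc
The Ccl8 window held 1 TATA box, starting 32 bases before the start of the gene. The Ccl9 window held TATA boxes 224, 94 and 92 bases before the start, the last 2 of which overlap on opposite strands, an AP-1 match at 53 bases and an NF-kB match at 35 bases. Among 32851 RefSeq promoter windows of the same length, 12.4% held a TATA box, 6.75% an AP-1 match, 9.56% a C/EBP match and 1.41% an NF-kB match. Such a match is a description of the letters and not a bound site.

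In both adult libraries most UMIs of Ccl2, Ccl7, Ccl9 and Ccl11 came from endoneurial-like cells, 1 of the mesenchymal-like classes. At 3 DPI the 274 endoneurial-like cells were 12.7% of the cells and held 57.9% of the Ccl2, 53.9% of the Ccl7, 62.3% of the Ccl9 and 68.0% of the Ccl11 UMIs of all kept cells. In the uninjured nerve the 416 endoneurial-like cells were 22.6% of the cells and held 73.2%, 81.0%, 91.5% and 78.6% of the UMIs of the same genes. In neonatal replicates 1 and 2 all mesenchymal-like cells held 96 of 194 and 125 of 263 Ccl2 UMIs, and in replicate 1 they held 7 of 56 Ccl9 UMIs. Ccl3, Ccl4, Ccl5 and Ccr2 had 81.8% to 93.8% of their 3 DPI UMIs in immune-like cells, and Ccl8 had 45.8% of its 3 DPI UMIs in epineurial-like cells, the fibroblasts of the outer nerve sheath.

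**Figure D1:**
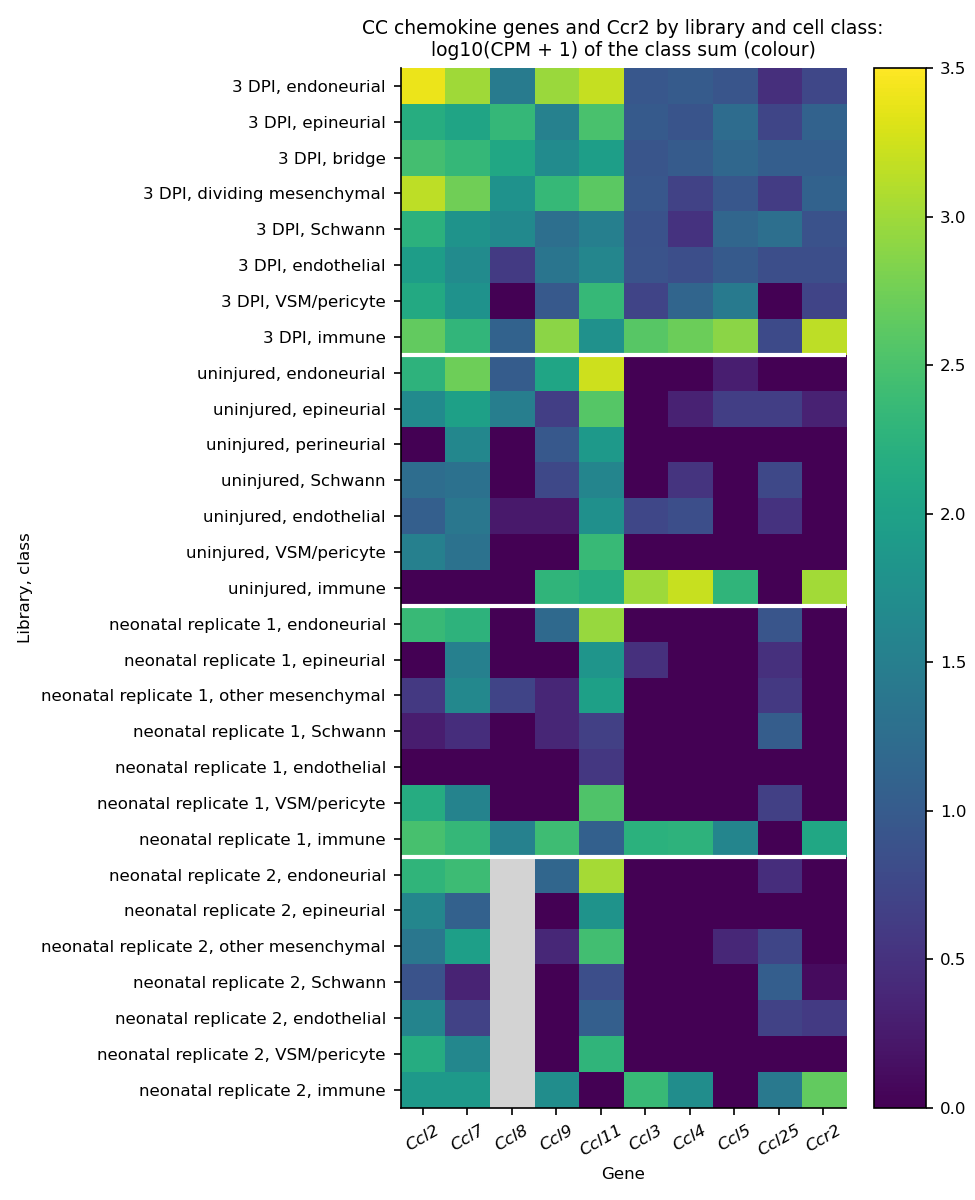
Level of the 10 genes, as log10(CPM + 1), in the main cell classes (rows) of the 4 libraries, with grey for Ccl8, which was not listed in neonatal replicate 2. At 3 DPI Ccl2, Ccl7, Ccl9 and Ccl11 are brightest in the endoneurial row and Ccl3, Ccl4, Ccl5 and Ccr2 in the immune row.

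Ccl2, the main CCR2 ligand, was higher in endoneurial-like cells at 3 DPI than in the other libraries. Its level was 2523 CPM (2443 to 2604) at 3 DPI, 180 CPM (155 to 207) in the uninjured nerve, 227 CPM (183 to 278) in neonatal replicate 1 and 193 CPM (157 to 234) in neonatal replicate 2. The 3 DPI interval lay above all others, and the other 3 overlapped each other. The 3 DPI to uninjured ratio was 14.0 (12.1 to 16.3). The share of cells with a Ccl2 UMI was 81.4% (223 of 274) at 3 DPI and 16.1% (67 of 416) in the uninjured nerve. Median depth differed between these cells, 4375 against 2178 UMIs, and at 500 UMIs per cell, with 19 and 5 shallower cells left out, the shares were 54.9% and 5.84%.

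Ccl7, a second CCR2 ligand, was also higher at 3 DPI, by a smaller ratio. Its endoneurial level was 990 CPM (941 to 1042) at 3 DPI, 538 CPM (494 to 583) in the uninjured nerve, 184 CPM (145 to 230) in neonatal replicate 1 and 248 CPM (207 to 294) in neonatal replicate 2. The order was 3 DPI, uninjured and then the neonatal preparations, whose intervals overlapped each other. The 3 DPI to uninjured ratio was 1.84 (1.67 to 2.03), beside a median of 1.17 over all genes. Thinned to 500 UMIs, 38.8% of 3 DPI and 14.6% of uninjured endoneurial-like cells held a Ccl7 UMI, compared with 74.5% and 35.3% of all cells.

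Ccl9, a CCR1 ligand, stood lowest in the neonatal nerve. Its endoneurial level was 949 CPM (900 to 999) at 3 DPI, 112 CPM (92.8 to 134) in the uninjured nerve, 14.5 CPM (5.32 to 31.5) in neonatal replicate 1 and 13.2 CPM (5.32 to 27.3) in neonatal replicate 2. The neonatal intervals overlapped each other and lay below the uninjured one. The ratio of 3 DPI to uninjured was 8.47 (7.02 to 10.3), and the ratios of neonatal to uninjured were 0.129 (0.0465 to 0.290) and 0.118 (0.0465 to 0.251). Thinning gave shares of 29.8% at 3 DPI and 5.84% in the uninjured nerve, against 70.8% and 16.3% of all endoneurial-like cells.

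Ccl11, the eotaxin gene, had about the same level in both adult endoneurial classes. It stood at 1569 CPM (1507 to 1634) at 3 DPI, 1692 CPM (1614 to 1772) in the uninjured nerve, 898 CPM (809 to 995) in neonatal replicate 1 and 1063 CPM (977 to 1155) in neonatal replicate 2. The adult intervals overlapped slightly and lay above both neonatal ones. The 3 DPI to uninjured ratio was 0.928 (0.872 to 0.987), and at 500 UMIs per cell it was 1.07, so its side of 1 was not settled. Ccl11 UMIs were in 84.3% of 3 DPI and 87.3% of uninjured endoneurial-like cells, and in 49.8% and 46.5% after thinning.

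**Figure D2:**
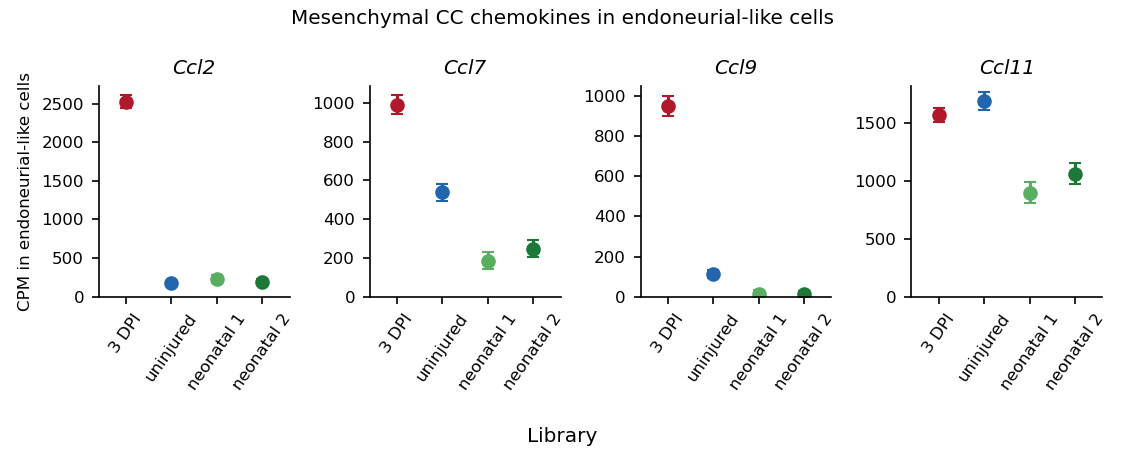
CPM of Ccl2, Ccl7, Ccl9 and Ccl11 in endoneurial-like cells of the 4 libraries. Points are class sums and bars are exact Poisson 95% intervals, which cover counting error only. Ccl2, Ccl7 and Ccl9 are highest at 3 DPI, and Ccl11 is 1569 CPM at 3 DPI and 1692 CPM in the uninjured nerve.

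In endoneurial-like cells, 8 of the 10 genes reached the minimum of 10 UMIs over both adult libraries, and 4 of them, Ccl2, Ccl9, Ccl4 and Ccl5, were at least 3-fold higher at 3 DPI. Of all 11156 genes that reached that minimum, 9.34% were. Ccl4 and Ccl5 stood at only 9.25 and 7.27 CPM there, close to the 5.93 and 8.89 CPM of 3 DPI endothelial-like cells, which should lack them. Thinned to 500 UMIs per cell, 2 genes were at least 3-fold higher. None of the 10 was at least 3-fold lower, and the background for lower was 4.54%. In the neonatal comparisons with the uninjured nerve, 1 of 5 and 1 of 4 genes were at least 3-fold lower, in both cases Ccl9, with backgrounds of 7.79% and 6.71%.

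Single endoneurial-like cells often held all 4 mesenchymal chemokines at 3 DPI. Ccl2, Ccl7, Ccl9 and Ccl11 were found together in 151 of 274 cells (55.1%), while the product of their shares is 36.2%. Cells with all 4 had a median of 7637 UMIs and the others 1321 UMIs, so depth moved with co-detection and its part was not tested. In the uninjured nerve, 12 of 416 cells (2.88%) held all 4. In neonatal replicates 1 and 2 only 1 and 2 cells did. No UMI of any of the 4 was found in 12 cells (4.38%) at 3 DPI and in 41 cells (9.86%) of the uninjured nerve. In the neonatal preparations these were 23 cells (20.9%) and 75 cells (27.2%).

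The spread within the class also differed between libraries. At 3 DPI the median endoneurial-like cell had 17.4 Ccl2 UMIs per 10000 UMIs, with quartiles of 4.70 and 32.1. In the uninjured nerve the median and the upper quartile were 0, and the 10% of cells with the most Ccl2 held 86.9% of its UMIs, against 44.1% at 3 DPI. For Ccl11 the median cell had 12.2 UMIs per 10000 at 3 DPI and 13.1 in the uninjured nerve, and the top 10% held 39.1% and 35.0% of the UMIs. Ccl2 was thus spread over most endoneurial-like cells at 3 DPI and over a minority of them in the uninjured nerve, whereas Ccl11 was spread over most of them in both.

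Among the other mesenchymal-like cells at 3 DPI, the dividing cells followed the endoneurial-like cells. These 166 cells had 1423 CPM of Ccl2, 557 CPM of Ccl7, 223 CPM of Ccl9 and 416 CPM of Ccl11, with a median depth of 5749 UMIs. The 323 bridge-like cells, named for the tissue bridge of the injured nerve, had 288, 214, 48.1 and 91.7 CPM of the same genes. The 64 perineurial-like cells of the uninjured nerve had no Ccl2 UMI, which allows up to 24.7 CPM, and 74.1 CPM (33.9 to 141) of Ccl11. Across classes at 3 DPI, Ccl2 ran from endoneurial-like over dividing mesenchymal, immune-like (456 CPM) and bridge-like cells down to Schwann-like, epineurial-like, VSM/pericyte-like and endothelial-like cells. The intervals of Schwann-like, epineurial-like and VSM/pericyte-like cells overlapped each other, and that of VSM/pericyte-like cells also overlapped the endothelial-like one.

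Ccl8, a ligand of CCR2 and other receptors, is often taken as a macrophage product. Among the main classes of both adult libraries its level was highest in epineurial-like cells. At 3 DPI these cells held 237 of its 517 UMIs, and all mesenchymal-like cells held 487. The epineurial level was 212 CPM (186 to 241) at 3 DPI, 30.9 CPM (20.4 to 45) in the uninjured nerve and 0 in neonatal replicate 1, which allows up to 6.06 CPM. The 3 DPI to uninjured ratio was 6.85 (4.59 to 10.6). Immune-like cells at 3 DPI had 11.8 CPM (4.74 to 24.3), with a UMI in 7 of 512 cells (1.37%). In neonatal replicate 1 they had 33.1 CPM (12.2 to 72.1) from 6 UMIs, which were 66.7% of the Ccl8 UMIs of that library.

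Within the epineurial-like cells, Ccl8 differed between the clusters led by Sfrp4 and by Pi16. In the Sfrp4-led cells it was 356 CPM (306 to 411) at 3 DPI and 33.3 CPM (21.1 to 49.9) in the uninjured nerve, a ratio of 10.7 (6.91 to 17.3). In the Pi16-led cells it was 89.6 CPM (67.3 to 117) and 22.1 CPM (6.02 to 56.5), a ratio of 4.06 (1.5 to 15.4). The Sfrp4-led cells were 7.54% of the 3 DPI cells and held 35.4% of the Ccl8 UMIs. Their share with a Ccl8 UMI was 27.0% at 3 DPI and 6.32% in the uninjured nerve, and 9.62% and 2.48% after thinning. Bridge-like cells had 119 CPM (99.4 to 141) and endoneurial-like cells 27.8 CPM (20 to 37.5) at 3 DPI.

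Ccl2, Ccl7, Ccl9 and Ccl11 were lower in epineurial-like than in endoneurial-like cells of the same adult library. Epineurial Ccl2 was 150 CPM (128 to 175) at 3 DPI and 47.0 CPM (33.7 to 63.8) in the uninjured nerve, a ratio of 3.20 (2.26 to 4.62). In the uninjured nerve 1 Sfrp4-led cell held 48.8% of the Ccl2 UMIs of the class, and 1 Pi16-led cell held 42.4% of the Ccl7 UMIs. Ccl11 was 309 CPM (277 to 343) and 379 CPM (340 to 423), a ratio of 0.814 (0.698 to 0.949). The ratio was 0.448 (0.340 to 0.584) in the Sfrp4-led cells, with 146 against 326 CPM, and 0.765 (0.609 to 0.967) in the Pi16-led cells, with 448 against 585 CPM. In epineurial-like cells 5 of 8 genes that reached the minimum were at least 3-fold higher at 3 DPI, against 4.29% of all genes, and these were Ccl2, Ccl8, Ccl9, Ccl5 and Ccr2. Ccl9, Ccl5 and Ccr2 stood at 34.0, 16.1 and 11.6 CPM. Of classes that should lack them, Ccl5 at 3 DPI was 13.3 CPM (4.89 to 29.0) in Schwann-like and 8.89 CPM (4.07 to 16.9) in endothelial-like cells. In VSM/pericyte-like cells Ccl5 was 25.7 CPM (9.42 to 55.9) from 6 UMIs. Ccr2 was 6.67 and 5.93 CPM in Schwann-like and endothelial-like cells. The 3 DPI library held 512 immune-like cells and the uninjured one 19, and the part of immune free RNA in the epineurial Ccl5 and Ccr2 was not tested. The counts were 2 of 5 in Sfrp4-led cells (Ccl8 and Ccl9), with a background of 3.99%, and 3 of 6 in Pi16-led cells (Ccl2, Ccl8 and Ccl5), with a background of 7.06%. In neonatal replicate 1, 4 of 4 genes that reached the minimum were at least 3-fold lower than in uninjured epineurial-like cells, against 6.20% of all genes, and in neonatal replicate 2 it was 2 of 3, against 5.98%. Ccl7 and Ccl11 were lower in both, with Ccl11 at 66.7 and 61.2 CPM.

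**Figure D3:**
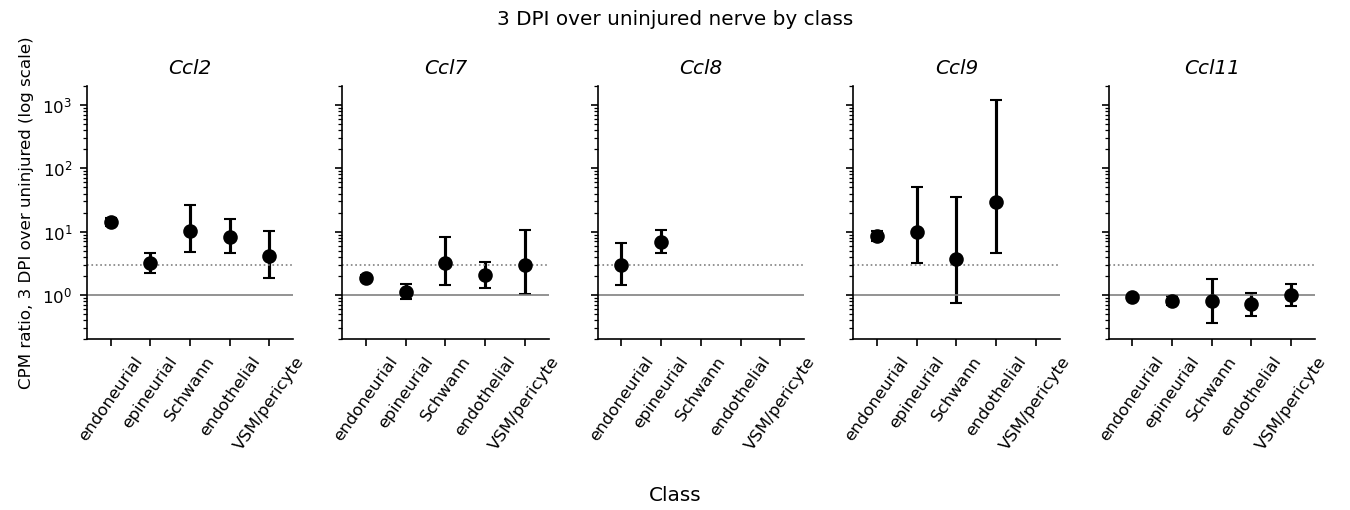
Ratio of CPM at 3 DPI to CPM in the uninjured nerve (log axis) by cell class, for genes with at least 10 UMIs over both libraries and at least 1 in the uninjured class. Bars are exact 95% counting intervals, the solid line marks a ratio of 1 and the dotted line a ratio of 3. Ccl2 lies above 3 in all 5 classes, and Ccl11 lies between 0.710 and 0.989, although its endoneurial ratio was 1.07 after thinning.

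In Schwann-like cells Ccl2 was 176 CPM (139 to 219) at 3 DPI, 16.8 CPM (6.77 to 34.7) in the uninjured nerve, 0.919 CPM (0.111 to 3.32) in neonatal replicate 1 and 6.78 CPM (4.47 to 9.86) in neonatal replicate 2. The 3 DPI interval lay above the others, and the ratio to uninjured was 10.4 (4.83 to 26.8). A Ccl2 UMI was found in 24.5% (34 of 139) of the 3 DPI and 1.11% (4 of 359) of the uninjured Schwann-like cells. Depth differed, with a median of 1966 against 983 UMIs, and thinning gave 4.0% and 0.585%. At 3 DPI 1 cell held 32.9% of the Ccl2 UMIs of the class. The 3 DPI endothelial-like cells, at a median of 1960 UMIs, had a Ccl2 UMI in 21.1% of cells, close to the share of the Schwann-like cells.

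Free RNA, released by broken cells and captured in every droplet, can give such UMIs. The level it would give was scaled from the mesenchymal genes Dcn, Lum, Col1a1 and Dpt, taking all their UMIs in a class as free RNA. For Ccl2 at 3 DPI this expected level was 104 CPM in Schwann-like cells, so the observed level was 1.69 times it, and 0.992 to 3.67 times it with each reference gene alone. In endothelial-like cells the observed level was 1.36 times the expected one (0.812 to 1.75 with single reference genes) and in VSM/pericyte-like cells 1.12 times (0.626 to 3.44). The ratio of Ccl2 to Ccl11 UMIs, which 1 source would keep constant, was 1.83 (1.75 to 1.90) in mesenchymal-like, 2.20 (1.5 to 3.28) in endothelial-like and 5.64 (3.17 to 10.8) in Schwann-like cells. The Schwann-like ratio lay above that of the mesenchymal-like cells. For Ccl2 to Ccl7 the ratio was 2.82 (1.81 to 4.51) in Schwann-like and 2.38 (2.27 to 2.50) in mesenchymal-like cells, and for Ccl9 to Ccl11 it was 0.571 (0.208 to 1.46) and 0.540 (0.510 to 0.572), so the intervals of these pairs overlapped. The 186 barcodes with under 200 genes at 3 DPI were planned as a second measure of free RNA. They had 145 CPM (83.1 to 236) of Ccl2, an interval that holds the Schwann-like level. They had no Ccl7 UMI (0 to 33.5 CPM), while Schwann-like cells had 62.2 CPM (41.3 to 89.9). These barcodes held 110047 UMIs, with Ccl3 at 100 CPM (49.9 to 179) against 38.4 CPM in kept cells. Whether they were free RNA or shallow cells was not tested, so no conclusion is drawn from them. In uninjured Schwann-like cells the Ccl2 level expected from mesenchymal free RNA was 3.82 CPM, against 104 CPM at 3 DPI. The observed uninjured level, from 7 UMIs, was 4.41 times the expected one (1.67 to 7.34 with single reference genes). The part of free RNA in the 3 DPI to uninjured ratio of Schwann-like Ccl2 was not tested.

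In Schwann-like cells 5 of 6 genes that reached the minimum were at least 3-fold higher at 3 DPI, against 10% of all genes. They were Ccl2, Ccl7, Ccl8, Ccl9 and Ccl25. Ccl7 was 62.2 CPM against 19.3 CPM, and its observed level was 1.42 times the expected one. Ccl9 was 17.8 CPM from 8 UMIs, 0.577 times the expected level. Its ratio to the uninjured class, which held 2 UMIs, was 3.69 (0.737 to 35.7). Ccl8 was 44.4 CPM (27.1 to 68.6) at 3 DPI, from 20 UMIs in 8 cells, and 0 of 359 uninjured cells held it, which gives a ratio of at least 6.15. Scaled from mesenchymal-like cells, a source chosen after the Ccl8 levels were seen, free RNA would give 8.28 CPM, and the observed level was 5.36 times that. Scaled from immune-like cells it would give 0.128 CPM. The part of free RNA in the 5 calls was not tested. In the neonatal Schwann-like cells Ccl7 and Ccl11 were at least 3-fold lower than in uninjured ones, 2 of 3 genes in replicate 1 (background 7.35%) and 2 of 4 in replicate 2 (background 7.73%). Ccl11 stood there at 3.67 and 6.03 CPM against 38.5 CPM, which was 1.09 times the level expected from free RNA in the uninjured nerve.

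Endothelial-like and VSM/pericyte-like cells, the cells of vessels, differed in Ccl11. In VSM/pericyte-like cells it was 223 CPM (166 to 292) at 3 DPI, 225 CPM (170 to 292) in the uninjured nerve, 340 CPM (275 to 415) in neonatal replicate 1 and 196 CPM (158 to 239) in neonatal replicate 2. These levels were 3.44, 9.95, 55.1 and 14.6 times those expected from free RNA. With single reference genes they were 1.92 to 10.5, 6.02 to 21.3, 32.7 to 88.7 and 9.17 to 24.1 times the expected level. Ccl11 was thus measured in VSM/pericyte-like cells of all 4 libraries above that level, with the neonatal replicate 1 value above the neonatal replicate 2 interval. In endothelial-like cells Ccl11 was 39.5, 55.7, 2.70 and 10.6 CPM in the same order, 1.13, 3.00, 0.660 and 2.58 times the expected level.

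Ccl2 of VSM/pericyte-like cells was 133 CPM (90.1 to 188) at 3 DPI and 32.1 CPM (13.9 to 63.3) in the uninjured nerve, a ratio of 4.13 (1.86 to 10.4). The 3 DPI level was 1.12 times that expected from free RNA (0.626 to 3.44 with single reference genes). The uninjured level, from 8 UMIs, was 13.1 times it (7.92 to 28.0). The part of free RNA in the ratio was not tested. In neonatal replicates 1 and 2 Ccl2 was 145 CPM (104 to 197) and 144 CPM (112 to 182), 117 and 65.1 times the expected level. In replicate 1, however, 1 cell held 58.5% of these UMIs and 9 of 128 cells had any, while in replicate 2 the top cell held 11.4% and 35 of 369 cells had a UMI. Ccl2 was the 1 gene of 3 at least 3-fold higher than in uninjured VSM/pericyte-like cells in each preparation, with backgrounds of 10.3% and 7.95%. At 3 DPI, 1 of 3 VSM/pericyte-like genes that reached the minimum, Ccl2, was at least 3-fold higher than uninjured, with a background of 7.58%. In endothelial-like cells 2 of 6, Ccl2 and Ccl9, were at least 3-fold higher, with a background of 4.84%. Ccl2 was there 86.9 CPM (69.7 to 107) against 10.5 CPM (5.76 to 17.7), and Ccl9 21.7 CPM against 0.752 CPM from 1 UMI. At 3 DPI these levels were 1.36 and 1.15 times those expected from mesenchymal free RNA. The part of free RNA in the 2 calls was not tested. In neonatal replicate 2 endothelial-like cells Ccl2 was 36.5 CPM (25.9 to 50.2), 53.9 times the expected level and 3.47 times the uninjured level, the 1 higher gene of 3 beside a background of 5.04%. The other 2 genes were at least 3-fold lower, with ratios of 0.165 (0.0423 to 0.466) for Ccl7 and 0.190 (0.0909 to 0.360) for Ccl11, beside a background of 6.59%. In neonatal replicate 1 Ccl2 was 0 in 144 cells, which allows up to 8.10 CPM, and 1 of 3 genes, Ccl11, was at least 3-fold lower (background 9.10%).

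**Figure D4:**
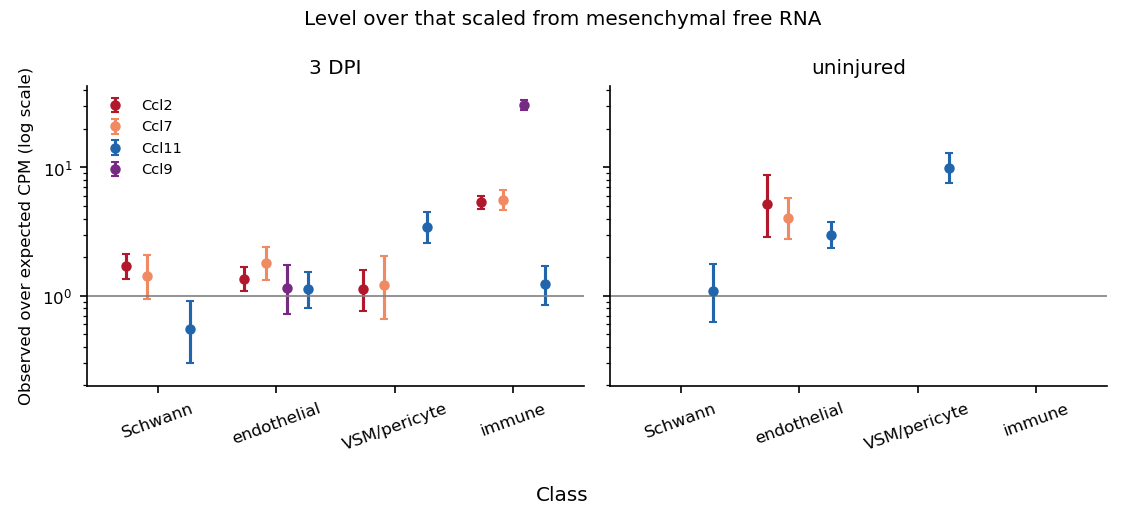
Observed CPM divided by the CPM expected from mesenchymal free RNA (log axis) for Ccl2, Ccl7, Ccl9 and Ccl11 in 4 non-mesenchymal classes of the adult libraries, for values of at least 10 UMIs. Bars are the Poisson 95% intervals of the observed level and the line marks equality. At 3 DPI the endothelial points lie between 1.13 and 1.80, immune Ccl9 at 30.8, and Ccl11 in VSM/pericyte-like cells at 3.44.

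Immune-like cells were 512 of 2162 cells at 3 DPI. The uninjured nerve held 19 and the neonatal preparations 80 and 38, so levels outside 3 DPI rest on few cells. Ccl9 was their highest mesenchymal chemokine relative to free RNA, at 776 CPM (707 to 850) or 30.8 times the expected level at 3 DPI. It was found in 35.2% of the cells, and in 27.7% after thinning. In neonatal replicate 1 it was 254 CPM (186 to 339), and immune-like cells held 82.1% of its UMIs in that library. Ccl9 UMIs came mainly from endoneurial-like cells in both adult libraries, and from immune-like cells in neonatal replicate 1. In neonatal replicate 2, with 10 UMIs of Ccl9 in all kept cells, 7 were in endoneurial-like cells.

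The 3 DPI immune-like cells were divided further, and a sub-cluster was named only where at least 2 markers were among its 10 leading genes. Sub-clusters left unnamed by this rule also held macrophage/monocyte markers. Cells led by Hilpda, Plac8 and Gpnmb held 1936, 1128 and 3015 UMIs of Lyz2, against 1528 in macrophage/monocyte-like cells. Of Cd68 they held 66, 35 and 164 UMIs, against 33. Cells led by Hilpda held 217 UMIs of the mast cell marker Cma1, against 0 to 6 in each other sub-cluster, so they may be a mixture. Ccl9 was 1545 CPM (1339 to 1773) in cells led by Hilpda, 1015 CPM (836 to 1222) in macrophage/monocyte-like cells, 867 CPM (712 to 1046) in cells led by Plac8 and 232 CPM (160 to 326) in cells led by Gpnmb. The macrophage/monocyte-like and Plac8-led intervals overlapped. Ccl2 was 788 CPM (643 to 955), 535 CPM (407 to 690), 191 CPM (122 to 284) and 521 CPM (409 to 654) in the same order. Over all immune-like cells Ccl2 was 456 CPM and Ccl7 200 CPM, 5.36 and 5.61 times the level expected from mesenchymal free RNA. Ccl11, at 57.2 CPM, was 1.23 times it. In neonatal replicate 1 Ccl2 was 304 CPM (229 to 395) in immune-like cells, found in 28.8% of them, while in the uninjured nerve it was in 0 of 19 cells, which allows a share of up to 15.8%.

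Ccl3 and Ccl4, which encode MIP-1 alpha and MIP-1 beta, were highest in neutrophil-like cells. At 3 DPI Ccl3 was 3443 CPM (2689 to 4343) in 37 neutrophil-like cells, 344 CPM (251 to 460) in Hilpda-led cells, 308 CPM (213 to 431) in macrophage/monocyte-like cells and 155 CPM (74.5 to 286) in NK/T-like cells. The intervals below the neutrophil-like cells overlapped in sequence. Ccl4 was 4413 CPM (3553 to 5418) in neutrophil-like and 566 CPM (444 to 710) in Hilpda-led cells. A single cell held 53.8% of the neutrophil-like Ccl4 UMIs, and 19.7% for Ccl3. These cells were shallow, with a median of 440 UMIs and only 15 of the 37 deep enough for thinning. Ccl3 was in 51.4% of them and Ccl4 in 27.0%, and in 46.7% and 26.7% after thinning, against 2.48% of endothelial-like cells for both genes.

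Outside 3 DPI, Ccl3 and Ccl4 were also found mainly in immune-like cells. Ccl3 was 978 CPM (597 to 1511) in the uninjured nerve, from 20 UMIs in 2 cells, 171 CPM (116 to 243) in neonatal replicate 1 and 227 CPM (104 to 431) in neonatal replicate 2. Ccl4 was 1614 CPM (1111 to 2267), 182 CPM (125 to 256) and 50.5 CPM (6.12 to 182) in the same order. In the uninjured nerve 1 cell held 60% of the Ccl3 and 51.5% of the Ccl4 UMIs. In the other main classes at 3 DPI, Ccl3 stood at 4.28 to 8.95 CPM and Ccl4 at 2.22 to 12.8 CPM. The observed levels in endothelial-like cells were 1.57 and 1.0 times those expected from immune free RNA.

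Ccl5, the RANTES gene, was highest in NK/T-like cells. At 3 DPI it was 5607 CPM (5044 to 6217) in 75 NK/T-like cells, 535 CPM (417 to 676) in Hilpda-led cells, 199 CPM (129 to 294) in Plac8-led cells and 18.1 CPM (2.20 to 65.5) in macrophage/monocyte-like cells. It was found in 40.0% of NK/T-like cells, with a median of 731 UMIs, and in 41.8% of them after thinning. Endothelial-like cells had a median of 1960 UMIs, and 3.31% of them held Ccl5. The Hilpda-led and Plac8-led levels rest on 5 and 2 cells. In the uninjured nerve immune-like cells held 4 of the 8 Ccl5 UMIs, and in neonatal replicate 2 none of 38 did, which allows up to 75.7 CPM.

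Ccr2, the receptor for CCL2 and CCL7, was highest in macrophage/monocyte-like cells, the unnamed Plac8-led cells and NK/T-like cells. At 3 DPI it was 3282 CPM (2952 to 3638) in macrophage/monocyte-like cells, 2648 CPM (2372 to 2949) in Plac8-led cells, 1274 CPM (1013 to 1581) in NK/T-like cells, 436 CPM (330 to 565) in Hilpda-led cells and 106 CPM (59.1 to 174) in Gpnmb-led cells. Each of these intervals lay apart from the next. No UMI was found in the 37 neutrophil-like cells, which allows up to 145 CPM. The receptor was in 76.1% of macrophage/monocyte-like and 53.3% of NK/T-like cells, in 67.5% and 50.9% after thinning, and in 2.48% of endothelial-like cells, whose level of 5.93 CPM was 0.362 times that expected from immune free RNA. Macrophage/monocyte-like and Gpnmb-led cells, whose Ccl2 intervals overlapped, thus had the highest and the lowest Ccr2 of the sub-clusters with a UMI. Both held the macrophage/monocyte markers Lyz2 and Cd68.

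In the other libraries Ccr2 was 1027 CPM (636 to 1570) in uninjured immune-like cells, found in 11 of 19, 122 CPM (76.2 to 184) in neonatal replicate 1, found in 5 of 80, and 454 CPM (269 to 718) in neonatal replicate 2, found in 8 of 38. In neonatal replicate 1 a single cell held 50% of the Ccr2 UMIs. The neonatal replicate 1 interval lay below the other intervals. Endoneurial-like cells had 0 Ccr2 UMIs in the uninjured and both neonatal libraries and 7 at 3 DPI. Leading genes of the neonatal immune-like cluster included mast cell markers such as Cma1 beside Lyz2 and Mrc1, so these cells are a mixture.

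**Figure D5:**
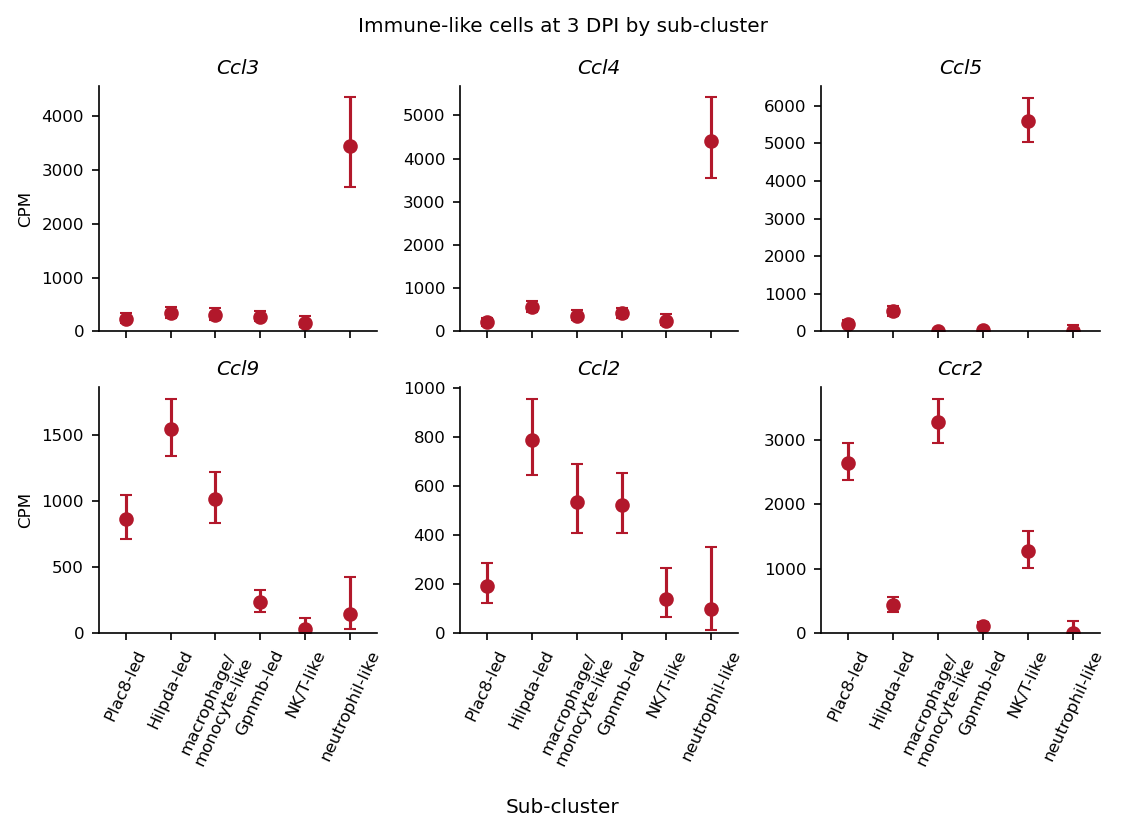
CPM of Ccl3, Ccl4, Ccl5, Ccl9, Ccl2 and Ccr2 in the 6 sub-clusters of immune-like cells at 3 DPI, with exact Poisson 95% intervals. Ccl3 and Ccl4 are highest in neutrophil-like cells, Ccl5 in NK/T-like cells (5607 CPM), Ccl9 and Ccl2 in Hilpda-led cells and Ccr2 in macrophage/monocyte-like cells.

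Ccl25, a ligand known from thymus and gut, was found at low levels. In Schwann-like cells it was 17.8 CPM (7.67 to 35.0) from 8 UMIs at 3 DPI, 4.81 CPM (0.583 to 17.4) from 2 UMIs in the uninjured nerve, 9.65 CPM (5.97 to 14.7) from 21 UMIs in neonatal replicate 1 and 10 CPM (7.18 to 13.7) from 40 UMIs in neonatal replicate 2. All 4 intervals overlapped. The 3 DPI to uninjured ratio was 3.69 (0.737 to 35.7). A UMI was found in 1.31% and 0.984% of the neonatal Schwann-like cells, while VSM/pericyte-like cells, which should lack the gene, had it in 1 of 128 and 0 of 369 cells. The neonatal replicate 2 level lay above the 6.18 CPM that a count of 0 allows in its VSM/pericyte-like cells, while its interval overlapped that of the endothelial-like cells, 3.85 CPM (1.05 to 9.85). At 3 DPI the bridge-like cells had 9.99 CPM (4.98 to 17.9) from 11 UMIs and the immune-like cells 5.05 CPM (1.04 to 14.8). Of neonatal Schwann-like cells, the non-myelinating ones had 11.2 CPM (5.96 to 19.1) and 13.0 CPM (8.94 to 18.2), and those of replicate 1 called myelinating had 5.11 CPM (1.39 to 13.1).

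Over 33 sums of a class in a library, the genes with the most similar pattern were taken from 6019 genes by Pearson's r of log2(CPM + 10). The points share libraries and, for nested classes, cells, so r is a description. For Ccl2 these were Ccl7 (0.85), Hk2 (0.80) and Epb4.1l1 (0.77), and for Ccl7 they were Ccl2 (0.85), Ctsb (0.83) and Hk2 (0.81). For Ccl9 they were Trf (0.94), Hk2 (0.89) and Spp1 (0.84), and for Ccl11 Tbx18 (0.89), Plxdc1 (0.85) and Cp (0.85). Ccl3 was closest to Ccl4, Lilrb4 and Vav1 (0.99 each). Ccl5 was closest to the killer cell receptor genes Klrg1 (0.96), Klrd1 (0.96) and Klra4 (0.95), and the 3 genes closest to Ccr2 included Sla (0.98) and Cytip (0.98). Between Ccl9 and Ccl11, which shared endoneurial-like cells but not immune-like cells, r was 0.37.

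The other CC ligands and the chemokine receptors were counted from lists by a fixed level of 50 CPM in a class of at least 50 cells. Of 15 other CC ligands, 10 were found and 4 reached that level. Ccl6 was 2729 CPM (2429 to 3055) in 3 DPI macrophage/monocyte-like cells and 1960 CPM over all 3 DPI immune-like cells. Ccl12 and Ccl24 were highest in neonatal replicate 1 immune-like cells, at 806 CPM (681 to 948) and 453 CPM (360 to 562), while Ccl12 was 32.0 CPM in 3 DPI immune-like cells. Ccl21a, a CCR7 ligand, was 100 CPM in uninjured endothelial-like cells, from 7 of 419 cells.

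Of 15 other receptors 6 reached that level, and values are given for 5 of them. Ccr1, a receptor for CCL3 and CCL9, was 1649 CPM (1142 to 2304) in neutrophil-like and 335 CPM (236 to 462) in macrophage/monocyte-like cells at 3 DPI. It was 569 CPM (464 to 690) in neonatal replicate 1 immune-like cells. Ccrl2 was 604 CPM (544 to 670) in 3 DPI immune-like cells and 181 CPM (132 to 242) in uninjured VSM/pericyte-like cells. Cxcr3 was 93.2 CPM (34.2 to 203) in NK/T-like cells. Darc, an older symbol of Ackr1, the atypical receptor of venular endothelium that binds many CC and CXC chemokines, was 562 CPM (522 to 604) in uninjured and 467 CPM (426 to 511) in 3 DPI endothelial-like cells, and 1340 CPM (1245 to 1440) in the uninjured endothelial-like cluster led by Fabp4. Ackr3, a second atypical receptor, was 1098 CPM (951 to 1262) in uninjured and 517 CPM (462 to 578) in 3 DPI Pi16-led epineurial-like cells.

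Genes of the NF-kB response, a pathway that acts on Ccl2 and Ccl7 in many cells, had no common direction in endoneurial-like cells. All 12 listed genes reached the minimum, 2 were at least 3-fold higher at 3 DPI (Tnfaip2 and Nfkb2), 1 was at least 3-fold lower (Vcam1), and the median ratio was 1.11, beside 1.17 over all genes. Genes of dissociation and immediate early response, in contrast, were lower at 3 DPI. Of 12, 10 were at least 3-fold lower, their median ratio was 0.220, and their summed level was 9339 CPM at 3 DPI against 43097 CPM in the uninjured, 3352 CPM in the neonatal replicate 1 and 8121 CPM in the neonatal replicate 2 endoneurial-like cells. In Schwann-like cells 10 of these genes were at least 3-fold lower too, with a median ratio of 0.143. The part of this difference in the chemokine levels was not tested.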

How the data were processed

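The authors made digital gene expression matrices by the Drop-seq Alignment Cookbook and deposited raw UMI counts per gene and barcode, not normalized; per the labels the build was mm10. The 10 genes and all lists were chosen with earlier results of these data known. Barcodes with fewer than 200 genes, over 10% mitochondrial or over 5% hemoglobin UMIs were removed. The doublet score of scrublet (scanpy 1.11.5, Python 3.11.15) called 2 to 12 barcodes per library by its own threshold, so the 5% with the highest scores were removed. Cells were normalized with scran 1.30.0 and clustered in Seurat 5.3.0 (R 4.3.3; 2000 variable genes without chemokines and ligands, 20 components, resolution 0.4). Classes came from marker lists. The subtype score of 0.45 and the sub-clusters of immune-like cells with their naming rule were chosen after the clusters were seen. With 1 library per adult condition no test was made. A gene was called when its CPM ratio reached 3 among genes with at least 10 UMIs over both classes, and a class at 0 was set to 3 counts over the class. Immune free RNA was scaled from all immune-like cells with Tyrobp, Fcer1g, Lyz2, C1qa, C1qb and C1qc, because few cells met the macrophage rule. The named genes were all 10 members, other CC genes by level, and the 3 genes most like each of 7 members. Only the 3-fold call was tested on simulated data, as Poisson counts drawn from the adult endoneurial-like class sums. Free RNA, differences between cells and class assignment were not simulated. Alternatives covered filters, normalization, resolution, class assignment, thinning and TMM scaling (edgeR 4.0.16). Libraries at 9 DPI were not analysed here. Values of some genes of these lists are not reported here.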

Additional observations from a re-analysis of the deposited data

How the results depend on the processing

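With 1 library per adult condition, counting error and depth limit these values, and mice cannot be told apart from conditions. There were 65 alternative values of the 5 ratios and the count of endoneurial-like genes at least 3-fold higher. Of these, 52 stayed within the counting interval, or for the count within 1.5 times it, 13 moved and 0 were reversed. By the rule used, only a ratio at least 3-fold from 1 could be reversed. The Ccl7 and Ccl11 ratios and the count could therefore not be called so, although the Ccl11 ratio crossed 1. Taking all mesenchymal-like cells in place of the endoneurial-like ones, an alternative chosen after seeing the data, gave ratios of 10.8 for Ccl2, 1.60 for Ccl7, 6.04 for Ccl9 and 0.644 for Ccl11. Thinning to 500 UMIs gave 2.24 for Ccl7, 5.97 for Ccl9, 1.07 for Ccl11 and a count of 2. Classing each cell by its own markers gave 1.67 for Ccl7, 0.821 for Ccl11 and a count of 7. TMM scaling divided every endoneurial ratio by 1.13 (0.18 on the log2 scale) and gave 1.63 for Ccl7 and 0.820 for Ccl11. The causes were not tested. The Schwann-like Ccl2 ratio ranged from 6.38 to 23.2, and was 7.84 against uninjured non-myelinating cells alone, all within its interval. Of 264 alternative levels 208 and of 264 shares 191 stayed within their intervals, and 9 of 33 free RNA values did. The neonatal mean levels, taken without either preparation, moved in 0 of 12 values. The limit was the standard deviation of the same 2 preparations, which neither can exceed. This count was therefore fixed in advance and says nothing about stability. No paired analysis was possible because the adult conditions have 1 library each and the neonatal numbers are in accession order.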
